A study of Mus musculus with 18 samples.

Results

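The genes described here encode the integrins, the selectins and their ligands, and the junctional adhesion molecules, the surface proteins by which leukocytes hold to vessel walls, matrix and other cells. They were 42 named genes, a list by symbol matched to the 49585 gene rows of the count table, and all 42 were found. By role they comprised 4 alpha chains that pair with the beta2 integrin chain, the alpha4 and alphaE chains (2 genes), 11 alpha chains of mainly matrix-binding integrins, 1 platelet alpha chain, 9 beta chains, 2 selectins, 5 selectin ligands or related glycoproteins, 3 integrin ligands of the immunoglobulin superfamily and 5 junctional adhesion genes.

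RNA-seq was performed on viable CD45+ leukocytes from Kaede mice, whose transgenic fluorescent protein turns from green to red under violet light, so that red cells mark those exposed in the tissue. Recipients aged 6 to 10 weeks received OT-II Th1 cells and ovalbumin in CFA, and after 10 days were challenged with 100 µg heat-aggregated ovalbumin in the footpad (joint) or the ear pinna (skin). Tissue was photoconverted on day 3 and red cells were sorted 24 hours later from the tissue (nonmigrated) or its draining lymph node (migrated). The labels also give steady-state groups of cells that had left the joint or the ear for the node. The titles of the joint ones carry PBS and the letters KG, which are not spelled out, and those of the skin ones Naive. The labels call both groups migrated and describe a sort of red cells, but no measurement here shows whether the cells of the KG or Naive libraries were red. What the Naive mice received is not given in the sources used here. Each of the 6 groups had 3 libraries. Those of the inflamed groups were made from pools of 8 to 18 matched male and female mice, so their spread is a spread between pools, and pool sizes of the steady-state groups are not given in the sources used here.

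Levels are given as CPM, counts scaled to a common TMM-adjusted library size, and per kb of exon where genes are compared with each other. Library totals were 19239531 to 22528895 assigned counts in the inflamed skin groups and 28577566 to 43814403 in the other 4 groups. Depth and site therefore cannot be told apart among inflamed libraries, nor depth and inflammation between the skin migrated and skin steady-state groups. The column headers of the inflamed skin libraries also followed another pattern than those of the other 4 groups. Their share of reads counted to no gene feature was 0.0925% to 0.135%, against 0.227% to 0.562% in the other 4 groups. What these differences stand for is not given, and the same limits hold for them as for depth. A count of 3 in a library was taken as the floor, equal to 0.0616 to 0.18 CPM depending on the library. Unless another test is named, adjusted p values are from edgeR's quasi-likelihood F test with Benjamini-Hochberg adjustment over all genes tested, and calls need both an adjusted p below 0.001 and more than a 2-fold difference (above 1 on the log2 scale, either way). The leukocyte marker Ptprc (CD45) lay between 1155 and 2530.0 CPM in every library, while summed marker levels of other cells differed between groups by the amounts given beside each result. Replicate 3 of the skin nonmigrated group stood apart from its fellows, with 13198 CPM of macrophage and monocyte markers against 5035 and 3990.1 CPM, and 36.2 CPM of keratinocyte markers against 197 and 383 CPM. Without it, members called were 25 instead of 22 for migration at the joint, 14 as before at the skin, 9 instead of 4 between the nonmigrated groups and 5 instead of 1 for the interaction. In these bulk libraries fewer cells of a type and less RNA per cell cannot be told apart.

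Integrins are heterodimers of 1 alpha and 1 beta chain that switch between bent and extended states when talin and kindlin bind the beta tail. The beta2 chain pairs with CD11 alpha chains on leukocytes and binds ICAMs, the alpha4 chain binds VCAM-1 and MAdCAM-1, and alphaE with beta7 binds E-cadherin on epithelium. Selectins catch rolling leukocytes through sialylated, fucosylated glycans, and the junctional adhesion molecules line tight junctions, where leukocytes cross. In inflamed joints, leukocytes enter from synovial vessels by these steps, and those that leave travel by lymph to the draining node.

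Promoter windows are shown for 3 members on which the results turn: Itgam, which fell most among the members called at both sites, Itgb2l, the only member whose migration change differed by site at an adjusted p under 0.001, and F11r, which encodes JAM-A. Each is a RefSeq window of GRCm38.p6 from 250 bases before to 50 bases after the gene's start, read 5′ to 3′ on the gene's strand, with capitals marking GAGGAA or its reverse complement TTCCTC, the core letters of the PU.1 (myeloid ETS factor) motif. The Itgam window is chr7:128062390-128062689 on the plus strand, the Itgb2l window chr16:96443565-96443864 on the minus strand and the F11r window chr1:171437311-171437610 on the plus strand.
Itgam: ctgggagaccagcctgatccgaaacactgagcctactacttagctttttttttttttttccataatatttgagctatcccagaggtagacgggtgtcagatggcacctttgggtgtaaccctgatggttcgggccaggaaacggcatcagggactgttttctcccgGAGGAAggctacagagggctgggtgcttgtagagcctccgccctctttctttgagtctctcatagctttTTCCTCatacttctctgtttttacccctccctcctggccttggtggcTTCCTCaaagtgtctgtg
Itgb2l: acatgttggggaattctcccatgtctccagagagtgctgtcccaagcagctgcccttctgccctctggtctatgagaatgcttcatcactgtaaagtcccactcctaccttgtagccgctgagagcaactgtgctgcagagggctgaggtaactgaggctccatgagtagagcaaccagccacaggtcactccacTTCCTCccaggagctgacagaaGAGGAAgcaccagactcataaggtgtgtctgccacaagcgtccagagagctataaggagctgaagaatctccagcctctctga
F11r: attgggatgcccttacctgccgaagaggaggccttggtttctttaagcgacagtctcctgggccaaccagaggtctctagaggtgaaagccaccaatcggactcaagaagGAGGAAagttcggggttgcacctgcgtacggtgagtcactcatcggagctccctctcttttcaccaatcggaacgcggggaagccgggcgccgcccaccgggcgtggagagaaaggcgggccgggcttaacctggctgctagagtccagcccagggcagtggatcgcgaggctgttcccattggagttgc

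The Itgam window held 3 such matches, the Itgb2l window 2 and the F11r window 1. Of the 29 windows that RefSeq gives for 27 of the members, 13 held at least 1 match (44.8%), against 28.3% of all 32851 windows. Itgax, a neighbour of Itgam on chromosome 7, had no match. The other motifs searched on both strands were TGTGGT, the RUNX core, found in 3 member windows (10.3%, against 16.8% of all windows), GGGCGG, the GC box, found in 12 (41.4%, against 35.7%), and the NF-kB consensus, found in 12 (41.4%, against 26.8%). A match is a run of letters and not a measured binding site.

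The first question was which adhesion genes differed between leukocytes that had left the inflamed tissue and those that had stayed. At the joint, 22 of 40 members tested were called, 7 higher and 15 lower in migrated cells, against 21.4% of all 16777 genes tested. At the skin, 14 of 40 were called, 4 higher and 10 lower, against 20.9% of all genes. With the adjusted p threshold at 0.05, the counts were 29 of 40 at the joint (34.3% of all genes) and 26 of 40 at the skin (35.4% of all genes). Median log2 fold changes of the 40 members were 0.17 at the joint and 0.06 at the skin, beside 0.02 and 0.01 over all genes, so calls in both directions stood beside a median near 0. A fit of only the groups compared gave 19 calls at the joint, without F11r, Itgal and Itgb7, and 11 at the skin, without Icam2, Itga4 and Itga9. Itgb6 and Madcam1 were at or under the floor in every group and were not tested.

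Of the 26 members called at either site, 10 were called at both, and all 10 went the same way. Lower in migrated cells were Itgam, Itga9, Itga5, Itga1, Itgb2, Itgav, Cd44 and Itgax, and higher were Esam and Icam2. A further 12 were called at the joint only and 4 at the skin only, which does not by itself show a difference between sites. The plot of migration changes sets both sites side by side for each gene.

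**Figure D1:**
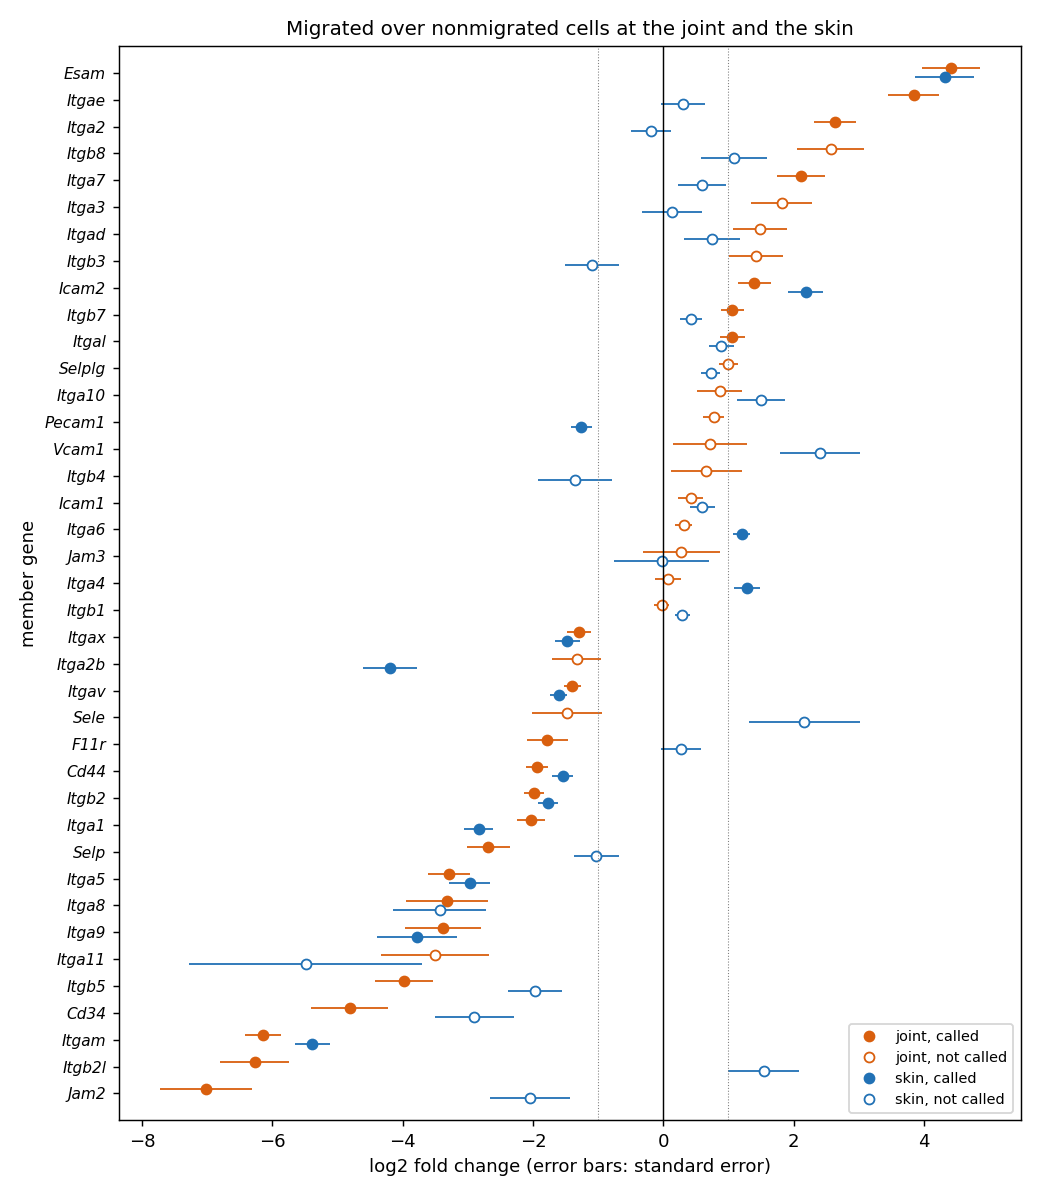
Log2 fold change of migrated over nonmigrated cells for 39 tested members at the joint (orange) and the skin (blue), with standard errors. Filled points are called and open points are not, and Glycam1 is left out because 1 library decides its value. Itgam lies at -6.15 and -5.39 and Esam at 4.41 and 4.32, while Itgb2l lies at -6.27 at the joint and 1.54 at the skin.

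Of the chains of the beta2 integrins, the main leukocyte integrins, Itgb2, Itgam and Itgax fell in migrated cells at both sites, and Itgal rose at the joint. Itgb2 (beta2, chr10:77530252-77565708, mm10) read 1956, 2016 and 1750.3 CPM in joint nonmigrated and 531, 506 and 409.8 CPM in joint migrated libraries (log2 fold change -1.98, SE 0.154, adjusted p 1.61e-06). At the skin it read 1432, 1204 and 1737 CPM in nonmigrated and 417, 419.9 and 447 CPM in migrated libraries (log2 fold change -1.77, SE 0.153, adjusted p 3.06e-06). Every nonmigrated library was above every migrated one at both sites.

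Itgam (CD11b, the alpha chain of the complement receptor CR3, chr7:128062640-128118491) fell furthest of the beta2 partners. Its level was 612, 656 and 614 CPM in joint nonmigrated and 7.53, 7.403 and 11.6 CPM in joint migrated libraries (log2 fold change -6.15, SE 0.278, adjusted p 8.43e-08). In the skin it was 515, 363 and 659.9 and 11.03, 10.9 and 14.8 CPM (log2 fold change -5.39, SE 0.2698, adjusted p 7.49e-08). The groups lay far apart at both sites. Of the steady-state nodes, the joint one held 14.8, 17.3 and 16.9 CPM and the skin one 2.76, 2.45 and 1.77 CPM. Of the 5024 exon bases of Itgam, 3450 are shared with Gm49368 on the same strand, where counting in default mode leaves reads unassigned, so its level may be understated in all groups.

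Itgax (CD11c, carried by dendritic cells and macrophages) was 149.8, 198 and 248 CPM in joint nonmigrated and 75.8, 93.6 and 74.5 CPM in joint migrated libraries (log2 fold change -1.29, SE 0.185, adjusted p 0.000128). Skin libraries gave 239, 261 and 195 CPM in nonmigrated and 79.8, 76.8 and 95.3 CPM in migrated cells (log2 fold change -1.47, SE 0.187, adjusted p 5.09e-05). Both sites showed no overlap, although the joint call was lost without joint migrated replicate 3 (adjusted p 0.00103, log2 fold change -1.20). Summed dendritic cell markers went the other way, 153 to 221 CPM in joint nonmigrated against 2382 to 6263 CPM in joint migrated libraries. Summed macrophage and monocyte markers fell, with 19308 to 24736 CPM in joint nonmigrated and 705 to 822 CPM in joint migrated libraries. The part of these cells in the Itgax change was not tested.

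Itgal (CD11a, the alpha chain of LFA-1) rose at the joint, from 309, 391 and 463 CPM in nonmigrated to 833, 855 and 738 CPM in migrated libraries (log2 fold change 1.06, SE 0.193, adjusted p 0.000668). At the skin the values were 312, 431 and 255 and 643, 612 and 597 CPM (log2 fold change 0.89, SE 0.193, adjusted p 0.00212). All migrated libraries lay above all nonmigrated ones at each site, and the skin change missed both thresholds. The joint call rested on a fold change close to the threshold and was lost without joint nonmigrated replicates 1 or 2, joint migrated replicates 1, 2 or 3, skin nonmigrated replicate 1, skin migrated replicates 1, 2 or 3 (adjusted p 0.00114 to 0.00385, log2 fold change 0.92 to 1.15). Itgad (CD11d) stayed between 0.74 and 3.74 CPM in every library and was not called in either comparison.

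Per kb of exon, the alpha chains that pair with beta2 changed their makeup. Itgam was 55.7% ± 5.48 (SD, n = 3) of the summed level of Itgal, Itgam, Itgax and Itgad in joint nonmigrated cells and 1.26% ± 0.442 in joint migrated cells. Itgal was 26.01% ± 2.69 and 86.4% ± 0.984 in the same groups. The skin showed the same order, with Itgam at 50.3% ± 12.4 and 2.13% ± 0.392 and Itgal at 25.4% ± 7.94 and 82.2% ± 2.33. No nonmigrated library overlapped a migrated one in either share. These shares describe the transcripts and were not tested.

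**Figure D2:**
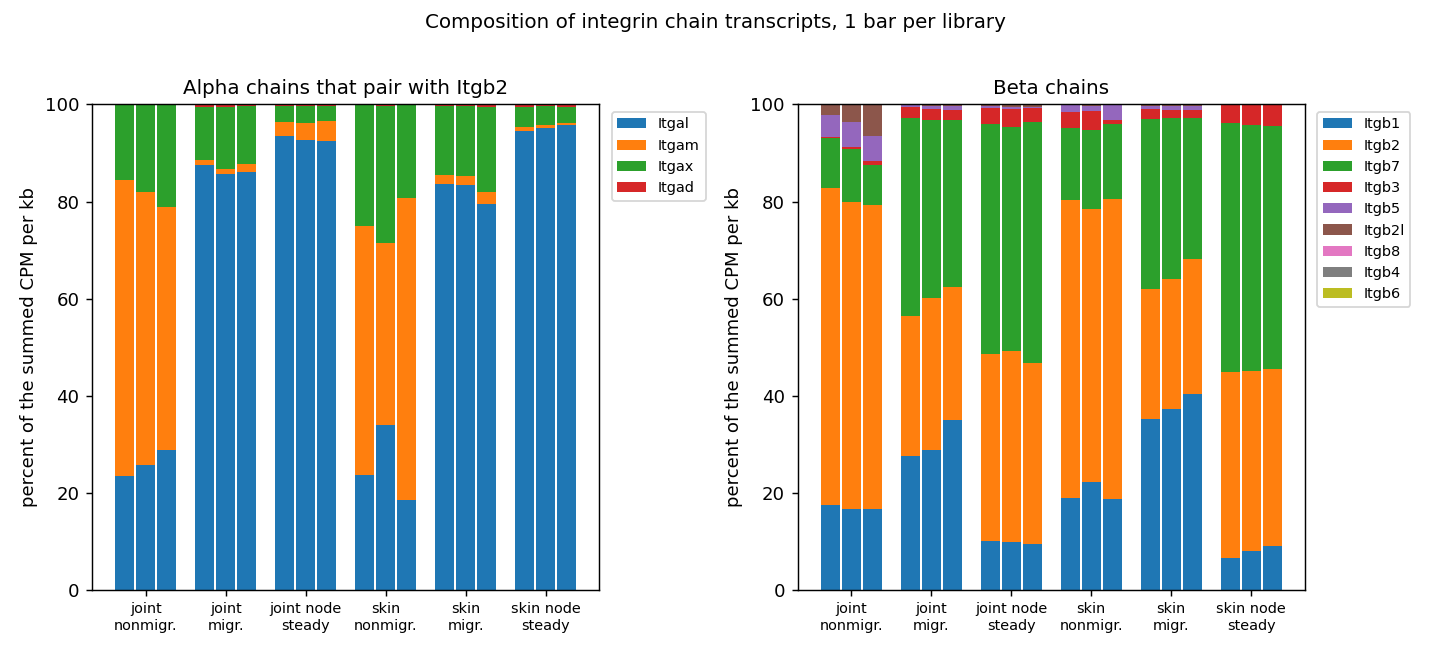
Share of the summed CPM per kb held by each alpha chain that pairs with beta2 (left) and by each beta chain (right), 1 bar per library, ordered by group. Itgam takes between 37.5% and 62.3% of the left panel in nonmigrated libraries and at most 4.08% in all others, where Itgal is the largest part.

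Itgb2l (a beta2-like chain, chr16:96422288-96443619) was abundant in joint nonmigrated cells alone among the 6 groups, at 94.96, 161 and 257 CPM. Joint migrated libraries held 1.33, 3.199 and 2.12 CPM (log2 fold change -6.27, SE 0.527, adjusted p 2.74e-06), skin nonmigrated libraries 1.32, 2.34 and 0.468 CPM and skin migrated libraries 3.35, 5.19 and 3.37 CPM. At the skin the direction was opposite but not called (log2 fold change 1.54, SE 0.544, adjusted p 0.0299), and the 3 joint nonmigrated libraries were the highest of all 18. Its promoter window, printed above, held 2 PU.1 core matches, and 28.3% of all windows held at least 1. The part of this motif in the Itgb2l level was not tested.

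Myeloid markers moved with these changes. Summed levels of 10 neutrophil markers were 7331 to 22921 CPM in joint nonmigrated, 48.2 to 112 CPM in joint migrated, 1726 to 2877 CPM in skin nonmigrated and 18.2 to 35.1 CPM in skin migrated libraries. All 10 were called lower in joint migrated cells and 8 of 10 in skin migrated cells, and the one marker without a library above the floor was Ly6g, in the skin migrated group and the skin steady-state node. The 11 macrophage and monocyte markers summed to 19308 to 24736 CPM in joint nonmigrated and 705 to 822 CPM in joint migrated libraries, and to 3990.1 to 13198 and 758 to 1109.7 CPM at the skin, with 10 of 11 called lower at each site and none at the floor. Their part in the falls of Itgb2, Itgam, Itgax and Itgb2l was not tested.

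The mucosal and lymphocyte-homing chains alpha4, alphaE and beta7 did not move as a unit. Itgae (alphaE, CD103, chr11:73090583-73147446) rose at the joint, from 7.33, 14.3 and 12.4 CPM in nonmigrated to 205, 140.4 and 141 CPM in migrated libraries (log2 fold change 3.84, SE 0.384, adjusted p 8.72e-06). At the skin it read 97.02, 123 and 43.9 and 134, 99.5 and 93.1 CPM (log2 fold change 0.30, SE 0.342, adjusted p 0.469). The highest joint nonmigrated library held 14.3 CPM and the lowest joint migrated one 140.4 CPM, whereas skin groups overlapped.

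Itga4 (alpha4, CD49d) rose at the skin instead, from 173, 233 and 191 CPM in nonmigrated to 428, 439 and 593 CPM in migrated libraries (log2 fold change 1.29, SE 0.205, adjusted p 0.000259). At the joint the libraries read 598, 426 and 377 CPM in nonmigrated and 418, 479.9 and 571 CPM in migrated cells (log2 fold change 0.07, SE 0.201, adjusted p 0.788), and the groups overlapped. The skin call was lost without skin nonmigrated replicates 1 or 3, skin migrated replicate 3 (adjusted p 0.00104 to 0.0019, log2 fold change 1.10 to 1.26). On the opposite strand 1124 of its exon bases overlap Cerkl, and although HTSeq counts by strand in its default mode, whether the libraries kept strand is not given in the sources used here.

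Itgb7 (beta7, the partner of alpha4 and alphaE) was 280.4, 317 and 209.7 CPM in joint nonmigrated and 676, 540.1 and 467 CPM in joint migrated libraries (log2 fold change 1.06, SE 0.176, adjusted p 0.000341). Skin values were 317, 319.8 and 393 and 490.1, 472 and 423 CPM (log2 fold change 0.42, SE 0.174, adjusted p 0.0558). Migrated libraries were the higher at both sites without overlap, but only the joint change was called, and that call was lost without joint nonmigrated replicates 1 or 3, joint migrated replicates 1 or 2 (adjusted p 0.00128 to 0.00167, log2 fold change 0.91 to 1.09).

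Itgae made up 7.34% ± 3.23 (SD, n = 3) of the summed CPM per kb of Itga4 and Itgae in joint nonmigrated cells and 50.01% ± 8.89 in joint migrated cells. In the skin its share was 55.3% ± 12.3 in nonmigrated and 40.7% ± 8.26 in migrated cells, so the joint nonmigrated group was the one that stood apart. Both T cell and dendritic cell markers moved with migration. The 10 T cell markers summed to 255 to 504 CPM in joint nonmigrated and 2594 to 3482 CPM in joint migrated libraries, and to 414 to 1162 and 3007 to 3133 CPM at the skin, with none of them at the floor in any group. The 9 dendritic cell markers, also none at the floor, summed to 555 to 1574 and 4639 to 6628 CPM at the skin. Their part in the changes of Itgae, Itga4, Itgb7 and Itgal was not tested.

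Among the 11 matrix-binding alpha chains, 4 fell at both sites. Itga5 (alpha5, the fibronectin receptor with beta1) was 498, 443 and 297 CPM in joint nonmigrated and 24.2, 51.6 and 51.01 CPM in joint migrated libraries (log2 fold change -3.29, SE 0.317, adjusted p 6.72e-06). The skin gave 395, 342 and 452 and 39.3, 46.6 and 65.8 CPM (log2 fold change -2.97, SE 0.313, adjusted p 1.29e-05). Nonmigrated libraries were the higher throughout, and the lowest of them, 297.4 CPM, was above the highest migrated library of either site, 65.8 CPM.

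Itga1 (alpha1, a collagen receptor) followed the same direction, from 45.9, 52.3 and 45.2 to 10.7, 13.4 and 10.9 CPM at the joint (log2 fold change -2.03, SE 0.213, adjusted p 1.25e-05). Its skin values were 69.2, 48.2 and 74.6 CPM in nonmigrated and 9.17, 6.39 and 11.5 CPM in migrated libraries (log2 fold change -2.83, SE 0.223, adjusted p 1.67e-06). No library crossed between the groups at either site.

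Itgav (alphaV, which binds RGD ligands such as vitronectin and activates latent TGF-beta) had tight groups, 121, 118 and 113 CPM in joint nonmigrated and 41.4, 42.7 and 49.5 CPM in joint migrated libraries (log2 fold change -1.40, SE 0.128, adjusted p 4.78e-06). In the skin it was 124, 112 and 98.3 and 40.3, 30.8 and 39.1 CPM (log2 fold change -1.60, SE 0.129, adjusted p 1.93e-06). The migrated levels at both sites were close to the 37.4, 42.3 and 33.9 CPM of the joint and 31.9, 35.7 and 38.5 CPM of the skin steady-state node.

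Itga9 (alpha9, which binds tenascin and VCAM-1) was a lower and more variable transcript. It read 18.8, 32.5 and 27.5 CPM in joint nonmigrated and 1.498, 2.27 and 3.79 CPM in joint migrated libraries (log2 fold change -3.38, SE 0.5802, adjusted p 0.000442), and 15.7, 8.36 and 39.4 and 1.58, 0.649 and 2.35 CPM at the skin (log2 fold change -3.78, SE 0.618, adjusted p 0.000311). The groups did not overlap at either site. The joint call was lost without joint nonmigrated replicates 2 or 3, joint migrated replicates 1, 2 or 3 (adjusted p 0.00108 to 0.00341, log2 fold change -3.77 to -3.09), and the skin call without skin migrated replicates 1 and 2 (adjusted p 0.00172 to 0.00204, log2 fold change -3.79 to -3.42).

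Itga8 (alpha8) was low throughout, at 1.81, 2.16 and 1.86 CPM in joint nonmigrated and 0.0821, 0.304 and 0.193 CPM in joint migrated libraries (log2 fold change -3.32, SE 0.625, adjusted p 0.000846). In the skin it was 1.799, 0.818 and 2.49 and 0.279, 0 and 0.177 CPM (log2 fold change -3.43, SE 0.709, adjusted p 0.00154). Only the joint change was called, although the fitted folds were of like size and no groups overlapped, and the joint call was lost without joint nonmigrated replicates 1, 2 or 3, joint migrated replicates 1, 2 or 3, skin nonmigrated replicate 1, skin migrated replicate 3 (adjusted p 0.00159 to 0.00504, log2 fold change -3.78 to -2.93).

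Other matrix-binding alpha chains rose. Itga2 (alpha2, a collagen receptor encoded next to Itga1 on chromosome 13) was 2.32, 3.59 and 4.21 CPM in joint nonmigrated and 23.8, 22.8 and 16.1 CPM in joint migrated libraries (log2 fold change 2.63, SE 0.321, adjusted p 3.6e-05). At the skin, nonmigrated libraries with 11.8, 20.4 and 8.57 CPM overlapped migrated ones with 12.7, 11.8 and 11.6 CPM (log2 fold change -0.18, SE 0.303, adjusted p 0.626). The lowest 3 values of the 12 inflamed libraries were thus those of the joint nonmigrated group.

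Itga7 (alpha7, a laminin receptor) was 0.793, 1.096 and 1.32 CPM in joint nonmigrated and 5.75, 4.37 and 3.77 CPM in joint migrated libraries (log2 fold change 2.11, SE 0.370, adjusted p 0.00051), against 3.24, 3.16 and 1.195 and 3.16, 4.44 and 3.85 CPM at the skin (log2 fold change 0.59, SE 0.363, adjusted p 0.182). Joint groups did not overlap and skin groups did, and the joint call was lost without joint nonmigrated replicates 1, 2 or 3, joint migrated replicates 1 or 2, skin migrated replicate 3 (adjusted p 0.00109 to 0.00356, log2 fold change 1.93 to 2.29).

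Itga6 (alpha6, a laminin receptor) rose at the skin, from 24.2, 29.4 and 24.7 CPM in nonmigrated to 60.9, 60.97 and 58.8 CPM in migrated libraries (log2 fold change 1.20, SE 0.130, adjusted p 1.58e-05). In the joint it was 46.8, 53.9 and 65.5 and 72.6, 66.4 and 67.2 CPM (log2 fold change 0.31, SE 0.127, adjusted p 0.0536). Its skin nonmigrated libraries were the 3 lowest of the 18. Of the remaining chains, Itga3 and Itga10 stayed between 0.5997 and 14.9 CPM in the 12 inflamed libraries and were not called at either site, and Itga11 had no library above the floor in either migrated group.

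The beta chains other than beta2 differed in direction. Itgb5 (beta5, which pairs with alphaV) fell at the joint from 156, 195 and 169.8 CPM in nonmigrated to 7.102, 12.6 and 13.2 CPM in migrated libraries (log2 fold change -3.98, SE 0.444, adjusted p 1.9e-05). Skin libraries read 35.98, 27.7 and 102 and 12.4, 13.9 and 16.2 CPM (log2 fold change -1.96, SE 0.416, adjusted p 0.0018). Neither site showed overlap, and the skin change passed 0.05 but not 0.001.

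Itgb1 (beta1, the shared chain of most matrix-binding integrins) was 678 ± 50.98 CPM (SD, n = 3) in joint nonmigrated, 668 ± 37.7 in joint migrated, 643 ± 57.5 in skin nonmigrated and 790.3 ± 69.2 in skin migrated cells. It was not called at either site, with log2 fold changes of -0.02 (SE 0.115) and 0.29 (SE 0.116). Per kb, Itgb2 was 63.7% ± 1.39 of the summed beta chains in joint nonmigrated and 29.2% ± 1.93 in joint migrated cells, while Itgb7 was 9.83% ± 1.39 and 37.2% ± 3.18. Itgb4 and Itgb8 were not called at either site and stayed between 0.492 and 7.13 CPM in inflamed libraries.

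The platelet integrin chains had their highest group mean in skin nonmigrated cells. Itga2b (alphaIIb, CD41) was 26.02, 50.6 and 21.3 CPM in skin nonmigrated and 1.54, 2.297 and 1.55 CPM in skin migrated libraries (log2 fold change -4.19, SE 0.4205, adjusted p 9.2e-06). At the joint it was 4.81, 6.98 and 7.88 and 1.56, 2.66 and 3.58 CPM (log2 fold change -1.33, SE 0.373, adjusted p 0.00984). All nonmigrated libraries were above all migrated ones at each site.

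Itgb3 (beta3, the partner of alphaIIb and alphaV) was 149.7, 159 and 50.7 CPM in skin nonmigrated and 61.3, 52.8 and 54.8 CPM in skin migrated libraries, where replicate 3 of the nonmigrated group lay below all migrated ones. At the joint it went from 14.1, 26.2 and 41.7 to 82.5, 73.1 and 63.7 CPM and the groups did not overlap. It was not called at either site. Summed levels of 9 other platelet and megakaryocyte markers were 98.5 to 183 CPM in joint nonmigrated and 49.8 to 352 CPM in skin nonmigrated libraries, against 2.52 to 7.24 and 1.897 to 2.61 CPM in the migrated ones. In skin nonmigrated cells Gp1bb, Gp5 and Gp9, which platelets carry, were at the floor, and the rest of the list was above it. Of the 6 markers tested, 3 were called lower in migrated cells at each site and none higher. The part of platelets in the Itga2b and Itgb3 levels was not tested.

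**Figure D3:**
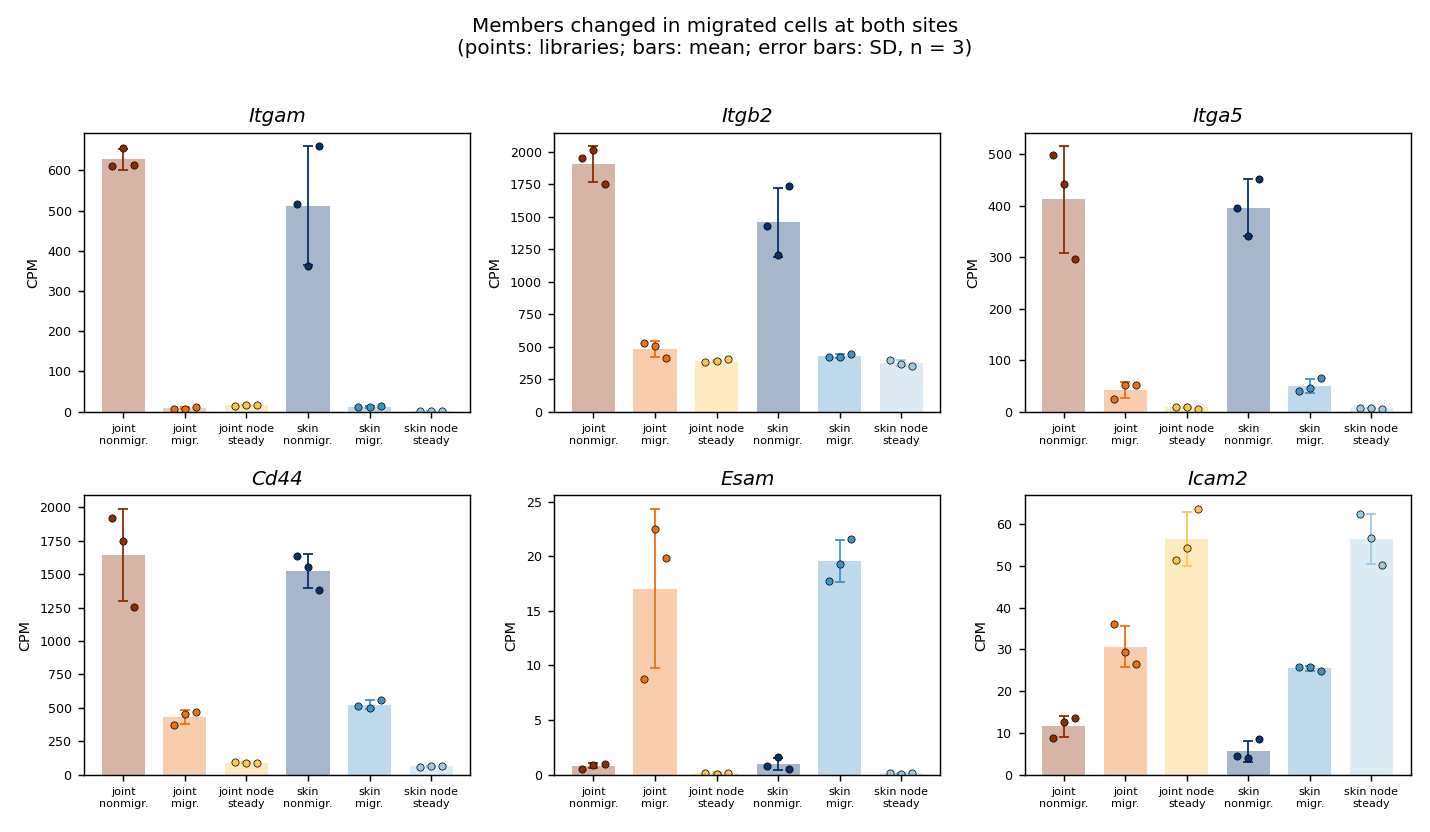
CPM of 6 members called in the same direction at both sites, by group, with a point for each library, bars at the mean and error bars of 1 SD (n = 3). Itgam, Itgb2, Itga5 and Cd44 stand highest in the nonmigrated groups, Esam is near 0 outside the inflamed migrated groups, and Icam2 is highest in the steady-state nodes.

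Of the selectins and their ligands, P-selectin, CD34 and CD44 were lower in migrated cells. Cd44 (the hyaluronan receptor) was 1923, 1749 and 1256 CPM in joint nonmigrated and 371, 453 and 465 CPM in joint migrated libraries (log2 fold change -1.93, SE 0.167, adjusted p 3.29e-06). Skin values were 1635, 1553 and 1384 and 517, 497 and 558 CPM (log2 fold change -1.54, SE 0.165, adjusted p 1.44e-05). The lowest nonmigrated library held 1256 CPM and the highest migrated library 558 CPM.

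Selp (P-selectin, stored in platelets and endothelium) was 4.46, 5.48 and 7.24 CPM in joint nonmigrated and 0.944, 0.794 and 0.922 CPM in joint migrated libraries (log2 fold change -2.68, SE 0.3298, adjusted p 3.86e-05). At the skin it was 1.68, 2.16 and 2.44 and 1.58, 0.799 and 0.709 CPM (log2 fold change -1.03, SE 0.341, adjusted p 0.0224), a smaller change that did not reach the 0.001 threshold. The groups did not overlap at either site.

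Cd34 (a sialomucin of endothelium and progenitors) was 11.5, 22.5 and 19.2 CPM in joint nonmigrated and 0.267, 0.631 and 0.986 CPM in joint migrated libraries (log2 fold change -4.81, SE 0.593, adjusted p 3.97e-05). Skin libraries gave 3.36, 3.21 and 5.72 and 1.07, 0.449 and 0.133 CPM (log2 fold change -2.90, SE 0.609, adjusted p 0.00172). Nonmigrated libraries were the higher at both sites, with the joint ones highest.

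Sele (E-selectin, made by activated endothelium) was low, at 0.848, 1.33 and 2.22 CPM in joint nonmigrated and 0.718, 0.397 and 0.4501 CPM in joint migrated libraries, and 0, 0.175 and 0.05197 CPM in skin nonmigrated cells, where no library was above the floor. Pooled counts in skin migrated cells were 4.76-fold (95% exact counting interval 1.63 to 18.9) those of skin nonmigrated cells, per effective library size. Sele was not called at either site.

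Selplg (PSGL-1, the leukocyte ligand of P-selectin) went the other way, from 511, 611 and 488 CPM in joint nonmigrated to 999.8, 1215 and 1001 CPM in joint migrated libraries (log2 fold change 1.00, SE 0.151, adjusted p 0.000179). It was just outside the fold threshold at the joint and further from it at the skin (log2 fold change 0.73). Joint migrated libraries were the higher without overlap. Glycam1, a sialomucin of high endothelial venules, was 76.2 CPM in replicate 1 of the skin migrated group and at most 1.5 CPM in the other 17 libraries.

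Endothelial markers, a list of 12 genes, summed to 44.3 to 48.3 CPM in joint nonmigrated and 13.03 to 15.5 CPM in joint migrated libraries, and to 69.3 to 76.7 and 12.8 to 18.6 CPM at the skin. None of the 12 was at the floor in the nonmigrated groups, while Tie1, Emcn, Cldn5 and Robo4 were at the floor in joint migrated cells and Tek, Cldn5 and Robo4 in skin migrated cells. Fibroblast markers (9 genes) summed to 137 to 388 and 2.18 to 3.24 CPM at the joint, with Lum and Postn at the floor in joint migrated cells, and to 70.2 to 269 and 1.77 to 2.61 CPM at the skin. In nonmigrated cells all 9 were above the floor. The part of either cell type in the Selp, Cd34, Jam2 and Pecam1 values was not tested.

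Among the integrin ligands, Icam2 (ICAM-2, a ligand of LFA-1) was 8.78, 12.7 and 13.5 CPM in joint nonmigrated and 36.1, 29.4 and 26.5 CPM in joint migrated libraries (log2 fold change 1.40, SE 0.257, adjusted p 0.000712). At the skin it rose from 4.38, 3.92 and 8.42 to 25.8, 25.9 and 24.8 CPM (log2 fold change 2.18, SE 0.272, adjusted p 4.35e-05). Migrated libraries were above nonmigrated ones without overlap at both sites. The joint call was lost without joint nonmigrated replicates 1, 2 or 3, joint migrated replicates 1, 2 or 3, skin migrated replicates 1, 2 or 3 (adjusted p 0.0013 to 0.0043, log2 fold change 1.23 to 1.52).

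Icam1 (ICAM-1) was 202 ± 3.35 CPM (SD, n = 3) in joint nonmigrated and 270.0 ± 76.4 CPM in joint migrated cells, and 249.8 ± 42.8 and 380.2 ± 35.7 CPM at the skin. Vcam1 (VCAM-1) was 2.46, 2.86 and 12.6 CPM in skin nonmigrated and 27.3, 32.5 and 35.7 CPM in skin migrated libraries, a change that passed 0.05 but not 0.001 (log2 fold change 2.40, SE 0.611, adjusted p 0.00556). Icam1 was not called at either site and Vcam1 overlapped between the joint groups.

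The junctional adhesion genes differed in direction among themselves and, for some, between the sites. F11r (JAM-A, a tight junction protein also carried by leukocytes and platelets, chr1:171437535-171464603) was 193, 150.2 and 102 CPM in joint nonmigrated and 22.7, 54.8 and 51.9 CPM in joint migrated libraries (log2 fold change -1.78, SE 0.315, adjusted p 0.000548). At the skin it was 47.5, 58.9 and 57.4 CPM in nonmigrated and 59.7, 57.2 and 81.4 CPM in migrated libraries (log2 fold change 0.27, SE 0.309, adjusted p 0.475). The joint nonmigrated libraries were the highest 3 of the 18, and the skin groups overlapped. The joint call was lost without joint nonmigrated replicates 1 or 2, joint migrated replicates 2 or 3, skin migrated replicate 1 (adjusted p 0.00101 to 0.00277, log2 fold change -1.99 to -1.55). Replicate 1 of the joint migrated group was the lowest of the 3 for F11r and also held the lowest sum of dendritic cell markers, 2382 CPM against 5268 and 6263 CPM. In the joint nonmigrated group replicate 1 was instead the highest for F11r. It also held the lowest sum there, 153 CPM against 221 and 203 CPM. Summed macrophage and monocyte markers were 19308 to 24736 CPM in joint nonmigrated and 705 to 822 CPM in joint migrated libraries. At the skin, where F11r was not called, these markers were 3990.1 to 13198 and 758 to 1110 CPM. The part of dendritic cells, macrophages or monocytes in the F11r values was not tested.

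Jam2 (JAM-B, found on endothelium) was 7.002, 6.44 and 4.96 CPM in joint nonmigrated libraries, and joint migrated cells had no library above the floor (0.0616, 0 and 0.0643 CPM). The pooled count per effective library size was 142-fold (95% exact counting interval 64.7 to 388) higher in joint nonmigrated cells, counting error only, and the gene was called (adjusted p 9.29e-06). At the skin Jam2 was 0.8395, 1.11 and 1.92 CPM in nonmigrated and 0.651, 0.1498 and 0.133 CPM in migrated libraries (log2 fold change -2.05, SE 0.614, adjusted p 0.0137). All 6 nonmigrated libraries were above all migrated ones of their site.

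Jam3 (JAM-C) stayed low, at 0.137, 0.565 and 0.601 CPM in joint nonmigrated, 0.493, 0.2102 and 0.857 CPM in joint migrated, 0.3598, 0.234 and 0.312 CPM in skin nonmigrated and 0.465, 0.2497 and 0.177 CPM in skin migrated libraries. The groups overlapped at both sites, and the intervals of its fold changes were wide (SE 0.594 and 0.729 on the log2 scale). On the opposite strand 1159 of its exon bases overlap Gm48796.

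Esam (endothelial cell-selective adhesion molecule) had the largest rise of the members called, at both sites. It was 0.547, 0.864 and 0.992 CPM in joint nonmigrated and 8.74, 22.5 and 19.9 CPM in joint migrated libraries (log2 fold change 4.41, SE 0.441, adjusted p 8.69e-06). Skin libraries gave 0.7796, 1.64 and 0.5197 and 17.8, 19.3 and 21.6 CPM (log2 fold change 4.32, SE 0.453, adjusted p 1.26e-05). The lowest migrated library held 8.74 CPM and the highest nonmigrated one 1.64 CPM. Summed endothelial markers were lower in migrated cells at both sites, and summed dendritic cell, T cell and B cell markers were higher. The part of any of these cell types in the Esam values was not tested.

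Pecam1 (CD31, at endothelial junctions and on many leukocytes) fell at the skin from 145, 139 and 109 CPM in nonmigrated to 47.7, 57.3 and 59.7 CPM in migrated libraries (log2 fold change -1.26, SE 0.167, adjusted p 7.12e-05). At the joint it was 42.5, 49.8 and 60.6 CPM in nonmigrated and 102, 78.1 and 81.2 CPM in migrated libraries (log2 fold change 0.77, SE 0.165, adjusted p 0.00191). The groups did not overlap at either site and the directions were opposite, with the joint change short of the threshold.

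**Figure D4:**
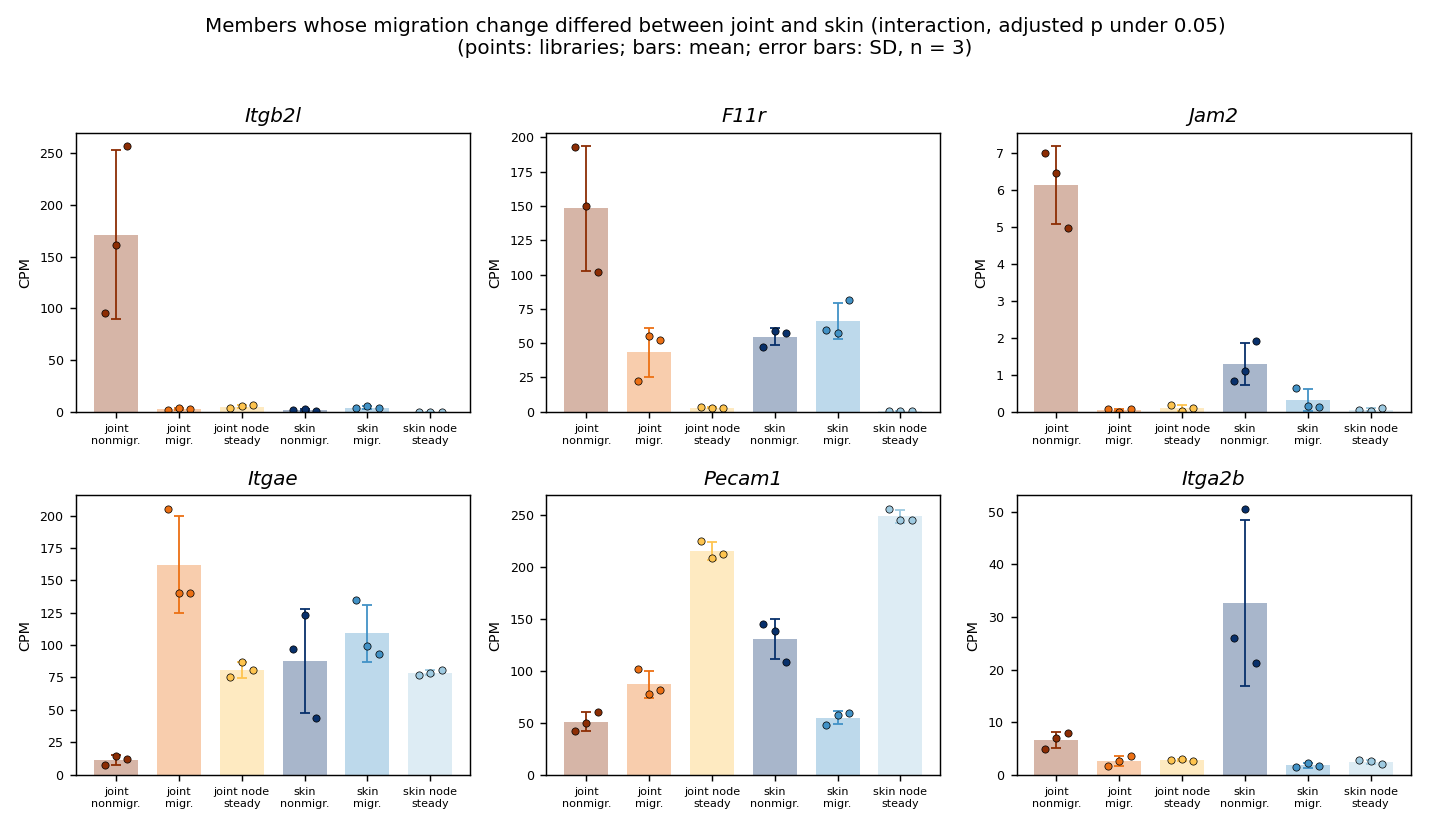
CPM by group of 6 of the 10 members whose migration change differed between joint and skin at an interaction adjusted p under 0.05, with a point for each library, bars at the mean and error bars of 1 SD (n = 3). Itgb2l, F11r and Jam2 peak in joint nonmigrated cells, Itgae is lowest there, Itga2b peaks in skin nonmigrated cells, and Pecam1 falls with migration at the skin only.

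The second question was where the sites themselves differed. Between joint and skin nonmigrated cells, 4 of 40 members were called, against 3.05% of all genes, and 17 of 40 at an adjusted p under 0.05, against 14.3% of all genes. Higher at the joint were Itgb2l (log2 fold change 6.97, SE 0.570, adjusted p 3.28e-05) and Itga6 (log2 fold change 1.08, SE 0.1295, adjusted p 0.000264). Lower at the joint were Itgae (log2 fold change -2.96, SE 0.371, adjusted p 0.000338) and Pecam1 (log2 fold change -1.36, SE 0.167, adjusted p 0.000301). These were the 4 members called, none had overlapping groups, and all 4 calls were lost in a fit of only those groups.

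Only Itgb2l kept its call whichever 1 library was left out. The Itga6 call was lost without joint nonmigrated replicates 2 or 3, skin nonmigrated replicate 1 (adjusted p 0.000783 to 0.002, log2 fold change 0.95 to 1.11), the Itgae call without joint nonmigrated replicates 1, 2 or 3, skin nonmigrated replicates 1 or 2 (adjusted p 0.0011 to 0.00225, log2 fold change -3.16 to -2.64), and the Pecam1 call without joint nonmigrated replicates 1 or 2, skin nonmigrated replicates 1 or 2 (adjusted p 0.00141 to 0.00238, log2 fold change -1.34 to -1.24). The count itself ran from 1 (without joint nonmigrated replicate 2 or skin nonmigrated replicate 1) to 9 (without skin nonmigrated replicate 3), and it was 2 without joint nonmigrated replicate 1 or 3 or skin nonmigrated replicate 2. F11r (log2 fold change 1.44), Selp (1.44), Cd34 (2.11), Jam2 (2.23) and Sele (4.20) were among the members higher at the joint that passed 0.05 but not 0.001, and for Sele, at the floor in skin nonmigrated cells, the pooled count was 19.2-fold (95% exact counting interval 7.35 to 71.5) higher at the joint.

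Of the neutrophil markers, 4 of 10 were called higher in joint than in skin nonmigrated cells and none lower. Keratinocyte markers (8 genes) were the reverse, at 2.26 to 3.82 CPM in joint and 36.2 to 383 CPM in skin nonmigrated libraries, with Krt14, Krt1 and Krt15 at the floor at the joint and none at the floor at the skin. B cell markers summed to 140 to 338 CPM in joint and 22.8 to 38.4 CPM in skin nonmigrated libraries. Of 9, 6 were called higher at the joint and 0 lower. Dendritic cell markers summed to 153 to 221 and 555 to 1574 CPM, and of 9, 1 was called lower at the joint and 0 higher. The part of these cells in the site differences was not tested. The skin libraries were also the shallower ones and had the other header pattern given above.

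Between joint and skin migrated cells edgeR called none of the 40 members, and 0% of all 16777 genes. At an unadjusted p under 0.05 there were 6 members and 2770 genes, and DESeq2 also called 0 members. The standard errors were 0.12 to 0.81 on the log2 scale for members other than Itga11 and Glycam1. The largest of these differences was Jam2 (-2.74, SE 0.807), which was at the floor in joint migrated cells, where pooled counts were 7.19-fold (95% exact counting interval 2.78 to 21.9) higher in skin migrated cells. B cell markers summed to 990.4 to 1322 CPM in joint migrated and 187 to 314 CPM in skin migrated libraries, without overlap. Of 9 markers 0 were called, although their median log2 difference was 2.17. The absence of calls therefore does not show that the groups were alike. The study, with DESeq2 at its own threshold, did report genes that differed between these populations.

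The third question was whether migration changed a gene differently at the joint and the skin. The interaction called 1 of 40 members, Itgb2l, against 0.119% of all genes, and 10 of 40 at an adjusted p under 0.05, against 6.13% of all genes. For Itgb2l the joint change minus the skin change was -7.81 on the log2 scale (SE 0.726, adjusted p 0.00043). This call was lost without joint nonmigrated replicate 2, joint migrated replicates 1, 2 or 3, skin nonmigrated replicate 1, skin migrated replicates 1 or 3 (adjusted p 0.00117 to 0.0021, log2 fold change -8.16 to -7.52). The count was 5 without skin nonmigrated replicate 3.

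The other 9 fell on both sides. Migration changes were higher at the joint for Itgae (3.54, SE 0.4997), Itga2 (2.82, SE 0.437), Itga2b (2.86, SE 0.541), Itgb3 (2.52, SE 0.582) and Pecam1 (2.03, SE 0.235). They were lower at the joint for F11r (-2.05, SE 0.439), Jam2 (-4.97, SE 0.959), Sele (-3.64, SE 0.999) and Itga4 (-1.21, SE 0.286). None of the 10 members called at both sites was among them, and the interaction was -0.76 (SE 0.321) for Itgam, -0.21 (SE 0.2096) for Itgb2 and -0.39 (SE 0.228) for Cd44.

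The fourth question was how inflamed migrated cells differed from the steady-state cells of the same node. Joint values here rest on the steady-state libraries titled PBS and KG, and skin values on those titled Naive, both described above. A difference between the sites in these comparisons cannot be told apart from what those titles stand for. Skin migrated libraries were also shallower than the skin steady-state ones. For the joint, 15 of 37 members tested were called, 14 higher and 1 lower in inflamed cells, against 15.9% of all 17107 genes (2116 higher and 598 lower). For the skin, 17 of 37 were called, 15 higher and 2 lower, against 25.1% of all genes (2842 higher and 1455 lower). Median log2 fold changes of the members were 1.1 and 0.72, beside -0.02 and 0.00 over all genes. Of the 13 members called at both sites, 12 were higher in both and Pecam1 was lower in both. Itga8, Itga11 and Jam2 were too low to be tested here, and a fit of all 18 libraries left 13 joint calls, without Itga3 and Itgae.

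Esam was nearly absent at steady state, at 0.156, 0.0245 and 0.177 CPM in the joint node and 0.112, 0.0926 and 0.153 CPM in the skin node (log2 fold change 7.12 and 7.38). Vcam1, which was 13.6, 28.5 and 33.3 CPM in joint migrated cells, was 1.22, 0.663 and 0.532 CPM in the joint steady-state node (log2 fold change 4.99, SE 0.356, adjusted p 1.33e-07). In the skin steady-state node it was 0.628, 0.926 and 0.825 CPM (log2 fold change 5.36, SE 0.364, adjusted p 4.1e-08). Both genes were thus higher in every inflamed migrated library than in any steady-state one.

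F11r was 3.36, 2.97 and 2.33 CPM in the joint and 0.291, 0.347 and 0.153 CPM in the skin steady-state node. The inflamed changes were 3.93 (SE 0.306) at the joint and 7.94 (SE 0.406) at the skin on the log2 scale. In F11r, joint migrated cells therefore lay between the joint steady-state node and the joint nonmigrated cells.

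Itgb1 was 133, 131 and 138 CPM in the joint steady-state node (log2 fold change 2.35, SE 0.114, adjusted p 5.68e-09) and 92.1, 105 and 117 CPM in the skin one (log2 fold change 2.95, SE 0.117, adjusted p 8.54e-10). Cd44 was 93.5, 90.3 and 88.5 and 58.8, 64.1 and 65.4 CPM, with changes of 2.28 and 3.09. The matrix-binding chains Itga1, Itga2, Itga3 and Itga5 rose by 1.86 to 2.94 on the log2 scale over both sites, Itgax by 2.50 and 2.59, Icam1 by 2.06 and 2.98, and Selplg by 1.38 and 1.62. Itgb2 and Itgb7 were not called at either site.

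Pecam1 was the member lower at both sites, with 225, 209 and 212 CPM in the joint steady-state node (log2 fold change -1.27, SE 0.113, adjusted p 9.19e-07) and 256, 246 and 245 CPM in the skin one (log2 fold change -2.15, SE 0.117, adjusted p 6.52e-09). Icam2 was called lower at the skin alone (log2 fold change -1.12, SE 0.1296, adjusted p 6.18e-06). Called at the joint alone were Itga7 (2.07) and Itgae (1.04), the latter close to the fold threshold and lost without joint migrated replicate 1, joint node steady state replicate 1 (adjusted p 0.00024 to 0.000923, log2 fold change 0.80 to 0.99). Called at the skin alone were Itgam (2.42), Itgb5 (4.93) and Itgb2l, whose skin steady-state libraries were at the floor and whose pooled count was 59.2-fold (95% exact counting interval 29.6 to 139) higher in skin migrated cells.

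**Figure D5:**
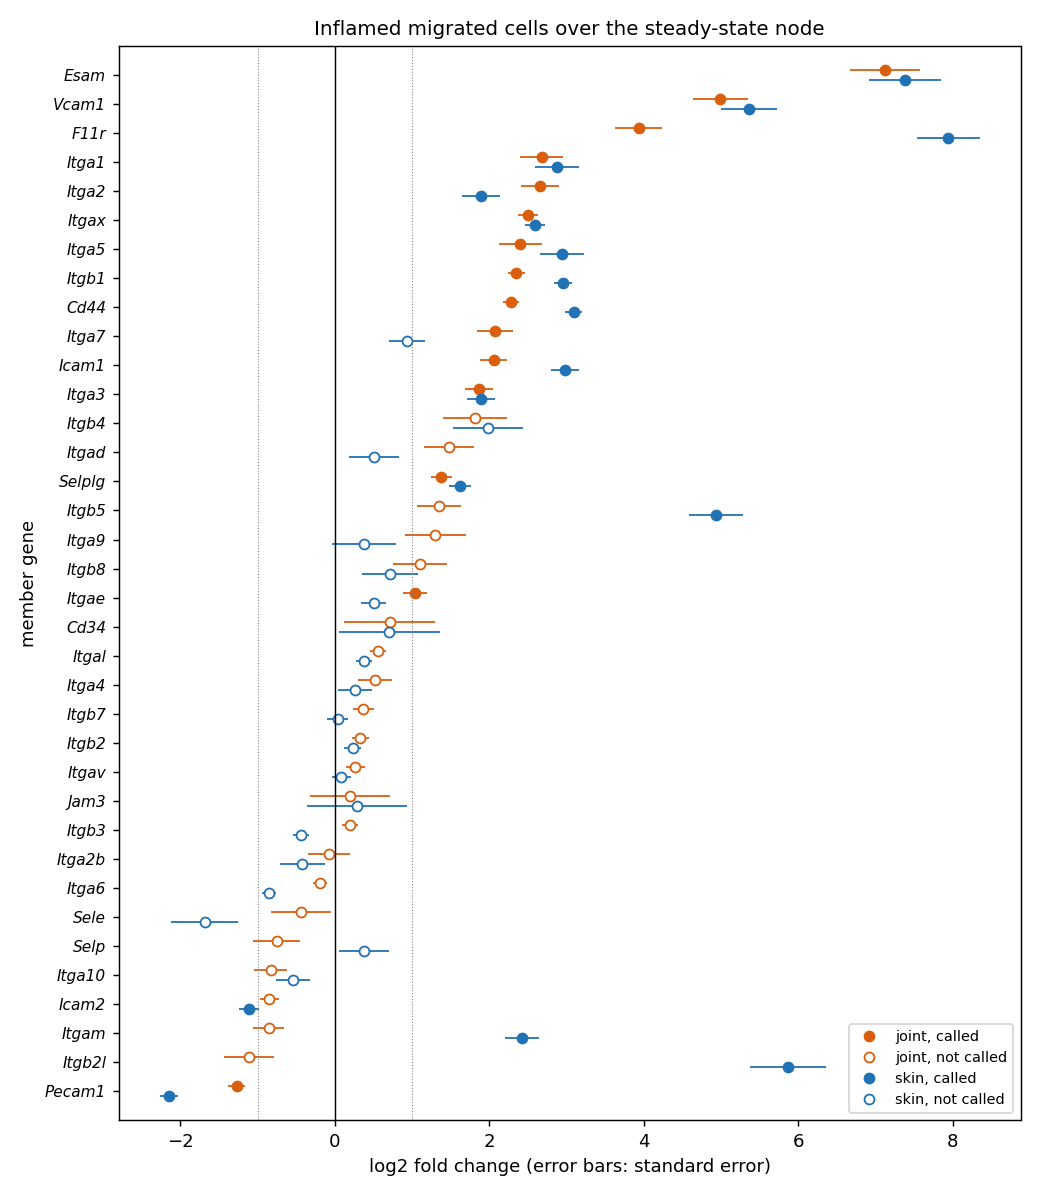
Log2 fold change of inflamed migrated cells over the steady-state node for 36 tested members at the joint (orange) and the skin (blue), with standard errors. Filled points are called, open points are not, and Glycam1 is left out because 1 library decides its value. Genes are sorted by the joint change, with Esam, Vcam1 and F11r highest at the joint, F11r highest at the skin (7.94) and Pecam1 lowest at both.

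Markers of other cells moved here too. B cell markers (9 genes) summed to 5499 to 5759 CPM in the joint and 3535 to 4744 CPM in the skin steady-state node, against 990.4 to 1322 and 187 to 314 CPM in inflamed migrated cells, and all 9 were called lower in inflamed cells at both sites. The dendritic cell markers summed to 473 to 780.3 and 479 to 590.1 CPM at steady state and to 2382 to 6263 and 4639 to 6628 CPM in inflamed migrated cells, none at the floor. T cell markers stayed between 2594 and 3957 CPM over the 4 lymph node groups. Mast cell and eosinophil markers (9 genes) summed to 7.25 to 8.74 and 5.02 to 6.204 CPM at steady state and to 37.7 to 243 and 27.3 to 40.1 CPM in inflamed migrated cells. Macrophage and monocyte markers summed to 602 to 834 and 203 to 248 CPM at steady state and to 705 to 822 and 758 to 1110 CPM after inflammation. Of 11, 1 was called higher at the joint and 10 at the skin. Neutrophil markers summed to 538 to 1018 and 14.9 to 22.6 CPM at steady state and to 48.2 to 112 and 18.2 to 35.1 CPM after inflammation. Of 10, 9 were called lower at the joint and 0 at the skin. The part of any of these cells in these member changes was not tested.

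Between the steady-state nodes, 4 of 37 members were called, all higher in the joint node, against 1.44% of all genes (239 higher and 7 lower). The joint libraries are titled PBS and KG and the skin ones Naive, so site cannot be told apart here from what those titles stand for. Itgam was 14.8, 17.3 and 16.9 CPM in the joint and 2.76, 2.45 and 1.77 CPM in the skin node (log2 fold change 2.79, SE 0.219, adjusted p 6.83e-06), and Itgb5 was 5.38, 4.32 and 3.53 and 0.561, 0.625 and 0.183 CPM (log2 fold change 3.21, SE 0.346, adjusted p 7.3e-05). Itgb2l was 3.11, 5.52 and 6.06 CPM in the joint node, with a pooled count 73.5-fold (95% exact counting interval 37.1 to 171) higher than in the skin node. F11r was the fourth (log2 fold change 3.38, SE 0.424, adjusted p 0.000226), and its call was lost without joint node steady state replicates 1, 2 or 3, skin node steady state replicates 1, 2 or 3 (adjusted p 0.00101 to 0.00291, log2 fold change 3.15 to 3.61). The groups did not overlap for any of the 4. Neutrophil markers summed to 538 to 1018 CPM in the joint and 14.9 to 22.6 CPM in the skin node, all 10 called higher in the joint node, and their part was not tested.

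Per kb of exon, the order of the members changed with the group. In joint nonmigrated cells Itgb2 was first at 625 ± 45.7 CPM per kb (SD, n = 3), followed by Cd44 at 242 ± 51.03, Itgb1 at 166 ± 12.5, Selplg at 126 ± 15.3 and Itgam at 125 ± 4.99, of which Selplg and Itgam did not differ beyond their spread. In joint migrated cells Selplg was first at 251 ± 28.97, then Itgb7 at 203 ± 38.2, Itgb1 at 164 ± 9.25 and Itgb2 at 158 ± 20.99, where the libraries of each neighbouring pair overlapped, so that this order is one of means. Skin nonmigrated cells also began with Itgb2 at 478 ± 87.6 and Cd44 at 225 ± 18.9, and skin migrated cells with Selplg at 304 ± 37.4 and Itgb1 at 194 ± 16.9. In the steady-state nodes Itgb7 was first, at 160.3 ± 13.9 in the joint and 166 ± 8.09 in the skin node, and Itgb2 second.

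Lists of genes that work with these receptors were also counted, a few of which (Gp1ba, Cdh5 and Col1a1) also stand in the marker lists. Of 29 genes of integrin activation and linkage to the cytoskeleton, 2 were called higher and 8 lower in joint migrated cells, and 1 higher and 5 lower in skin migrated cells. That was 34.5% of the list at the joint and 20.7% at the skin, against 21.4% and 20.9% of all genes, so the skin share was near the background. Fermt2 (kindlin-2, more typical of nonhematopoietic cells) was 4.53 ± 1.598 CPM in nonmigrated and 0.0802 ± 0.0653 CPM in migrated cells (log2 fold change -5.75, SE 0.837, adjusted p 0.000136) at the joint. Skap1, an adapter of T cell integrin activation, was 18.9 ± 6.25 CPM in nonmigrated and 138 ± 28.4 CPM in migrated cells (log2 fold change 2.86, SE 0.378, adjusted p 6.63e-05) at the joint. At the skin Rasgrp2, the exchange factor for Rap1 in platelets and leukocytes, was 26.99 ± 4.78 CPM in nonmigrated and 183 ± 3.98 CPM in migrated cells (log2 fold change 2.76, SE 0.234, adjusted p 2.83e-06), and Fermt2 was 20.7 ± 9.98 CPM in nonmigrated and 0.739 ± 0.795 CPM in migrated cells (log2 fold change -4.80, SE 0.7203, adjusted p 0.00017).

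Of 15 tested genes of selectin ligand synthesis, 5 were called higher and 1 lower at the joint and 4 higher and 4 lower at the skin (40% of the list at the joint and 53.3% at the skin, against 21.4% and 20.9% of all genes). Chst2, a sulfotransferase of selectin ligands, was 2.96 ± 1.03 CPM in nonmigrated and 18.4 ± 1.31 CPM in migrated cells (log2 fold change 2.64, SE 0.356, adjusted p 7.86e-05) at the joint, and Fut4, a fucosyltransferase, was 9.56 ± 1.95 CPM in nonmigrated and 42.4 ± 8.98 CPM in migrated cells (log2 fold change 2.14, SE 0.259, adjusted p 3.5e-05) at the skin. Cd24a, a mucin-like glycoprotein that P-selectin can bind, was 307 ± 139 CPM in nonmigrated and 88.6 ± 26.9 CPM in migrated cells (log2 fold change -1.79, SE 0.3298, adjusted p 0.000726) at the joint and 408 ± 92.4 CPM in nonmigrated and 59.2 ± 15.3 CPM in migrated cells (log2 fold change -2.79, SE 0.343, adjusted p 4.01e-05) at the skin.

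Of 26 tested partners in adhesion and diapedesis, 5 were called higher and 6 lower at the joint and 2 higher and 5 lower at the skin. The shares were 42.3% of the list at the joint and 26.9% at the skin, the latter near the 20.9% of all genes and the former beside 21.4%. Icam5, a further LFA-1 ligand, was 0.285 ± 0.0743 CPM in nonmigrated and 5.57 ± 2.44 CPM in migrated cells (log2 fold change 4.28, SE 0.5301, adjusted p 4.08e-05) at the joint and 0.792 ± 0.487 CPM in nonmigrated and 9.83 ± 3.04 CPM in migrated cells (log2 fold change 3.64, SE 0.507, adjusted p 0.000101) at the skin. Plaur, the urokinase receptor that associates with integrins, was 438 ± 50.4 CPM in nonmigrated and 35.1 ± 17.9 CPM in migrated cells (log2 fold change -3.64, SE 0.412, adjusted p 2.13e-05) at the joint and 777 ± 237 CPM in nonmigrated and 12.6 ± 5.93 CPM in migrated cells (log2 fold change -5.95, SE 0.463, adjusted p 1.55e-06) at the skin.

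Of 16 tested matrix ligands of integrins, none was called higher and 8 were called lower at the joint, and 9 were called lower at the skin (50% of the list at the joint and 56.2% at the skin, against 21.4% and 20.9% of all genes called in either direction, 2110 and 2084 of them lower). Fn1 (fibronectin, bound by alpha5 with beta1) was 11605 ± 851 CPM in nonmigrated and 26.2 ± 13.6 CPM in migrated cells (log2 fold change -8.79, SE 0.593, adjusted p 6.94e-07) at the joint. Spp1 (osteopontin, bound by alphaV and alpha9 integrins) was 936 ± 147 CPM in nonmigrated and 3.17 ± 0.191 CPM in migrated cells (log2 fold change -8.21, SE 0.555, adjusted p 5.62e-07) at the skin. The medians of these lists at the joint were -0.42 for activation and linkage, 0.27 for selectin ligand synthesis, -0.17 for adhesion partners and -1.96 for matrix ligands, beside 0.02 over all genes.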

How the data were processed

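RNA-seq of sorted cells was aligned and counted by the authors (Trim-Galore!, TopHat2, mm10, Ensembl 87, HTSeq in default mode), and the deposited table holds raw counts per gene in 18 libraries. All 18 columns were assigned from the labels. Of the rows, 5 counter summaries (11.3% to 15.1% of each library's total) were left out, and symbols, exon lengths and overlaps came from GENCODE M21, which matched 49326 of the 49585 gene rows. Members and lists were chosen with earlier results of these data known.

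The count test was that of edgeR 4.0.16 under R 4.3.3, by quasi-likelihood, after TMM scaling and filterByExpr (min.count 10). The 12 inflamed libraries were fitted together (16777 genes) and the 12 lymph node libraries together (17107 genes), with group as the only factor, since the replicate numbers were not shown to mark pairs. Each SE was taken as the size of the log2 fold change over the square root of F. The threshold of 0.001 follows earlier processing, and 0.05 was an alternative, as were DESeq2 1.42.0 (its size factors, or its Wald test), other filters, other libraries in the fit, a replicate block and leaving out each library. Values in every library are given for members called in a migration comparison or the interaction and for F11r, Jam2, Jam3, Selp, Cd34 and Itgb2, and from each pathway list the largest nonoverlapping call in each direction and migration comparison. Fit scripts were tested on simulated data. For the platelet list, 1 marker is not reported here. Libraries of a group differed by far more than sampling noise (chi-square per degree of freedom 16.2 to 130.0), so counting intervals and the floor of 3 counts cover counting error only. Figures were drawn with matplotlib 3.10.9.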

Additional observations from a re-analysis of the deposited data

Results flagged for a closer look

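The migration change differed between joint and skin for 10 members, by the interaction term of the edgeR fit at an adjusted p under 0.05 with a difference above 1 on the log2 scale. Among integrin chains the joint change minus the skin change was -1.21 for Itga4 (adjusted p 0.0263), 3.54 for Itgae (adjusted p 0.00309), 2.82 for Itga2 (adjusted p 0.00422) and 2.86 for Itga2b (adjusted p 0.0102). For the beta chains it was -7.81 for Itgb2l (adjusted p 0.00043) and 2.52 for Itgb3 (adjusted p 0.0243). For the selectin Sele it was -3.64 (adjusted p 0.0465), a fitted value that rests on a skin nonmigrated group with no library above the floor.

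Of the junctional adhesion genes, F11r gave -2.05 (adjusted p 0.0174), Jam2 -4.97 (adjusted p 0.0113) and Pecam1 2.03 (adjusted p 0.00105), and the Jam2 value depends on a joint migrated group at the floor. For Itgae, Itga2 and Itga4 the groups overlapped at 1 site and not at the other, and for Pecam1 they lay apart at both sites in opposite directions. Groups of 3 libraries are too small for a test of single outlying libraries.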

How the results depend on the processing

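Of 77 called member values (a gene in a comparison), 1357 of 1462 refits kept direction and side of the threshold, 105 lost the call and none reversed. Member calls moved by more than 1.5 times in these settings. Between nonmigrated cells of joint and skin, 4 calls became 14 with the DESeq2 Wald test, 17 at an adjusted p under 0.05, 9 with all 18 libraries, 10 with no filter on low counts and 0 in a fit of only the groups compared. For the interaction, 1 call became 8, 10, 5 and 5 under the first 4 of these. At the skin, 14 calls became 26 at an adjusted p under 0.05. Leaving out each library in turn gave 15 to 25 calls for migration at the joint, 13 to 17 at the skin, 1 to 9 between nonmigrated and 0 between migrated cells of the sites, 0 to 5 for the interaction, 14 to 17 and 17 to 19 for inflamed against steady-state nodes of joint and skin, and 3 to 4 between steady-state nodes. The cause of these moves was not tested, beyond the smaller number of libraries and the lower threshold where those are the setting.

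Same-numbered nonmigrated and migrated libraries correlated in their deviations from group means at 0.0117 to 0.191 for the joint and 0.0494 to 0.128 for the skin. Not every pair passed 0.1, so the numbers were not taken as pairs, although every skin library correlated best with its own number. With a replicate block within each site, calls were 18 for migration at the joint, 13 at the skin, 2 between nonmigrated cells, 0 between migrated cells, 0 for the interaction, 15 and 17 for inflamed against steady-state nodes and 2 between steady-state nodes. Of the 77 called values, 14 lost their call with the block (adjusted p 0.00106 to 0.00429). They were Itgal, Itgax, Itga7, Itga8, Icam2 and F11r for migration at the joint, Itga4 and Pecam1 at the skin, Itgae, Itga6 and Pecam1 between nonmigrated cells, Itgb2l for the interaction, and Itgb5 and F11r between steady-state nodes.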

Other observations

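Several members outside the migration calls had levels that set one group or library apart, given here as values. Glycam1 was 76.2 CPM in replicate 1 of the skin migrated group and 0.2 and 1.24 CPM in the other skin migrated libraries. Itgb8 (beta8, which with alphaV activates latent TGF-beta) was 0.492, 0.698 and 1.47 CPM in joint nonmigrated and 4.95, 4.23 and 6.69 CPM in joint migrated libraries, without overlap and with an adjusted p of 0.00127 that missed the threshold. Itga10 (alpha10) was 0.5997, 0.7597 and 1.403 CPM in skin nonmigrated and 2.05, 2.996 and 2.84 CPM in skin migrated libraries (log2 fold change 1.49, SE 0.368, adjusted p 0.00459).

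Among the junctional adhesion genes, the makeup per kb differed between the groups. F11r was 84.3% ± 6.26 (SD, n = 3) of the summed CPM per kb of F11r, Jam2, Jam3, Esam and Pecam1 in nonmigrated cells of the joint, 43.2% ± 11.2 in the migrated ones and 3.01% ± 0.457 in the joint steady-state node. At the skin the F11r share was instead the lower in nonmigrated cells, 48.7% ± 5.78 against 60.9% ± 3.39 in migrated cells, and was 0.246% ± 0.0931 in the steady-state node. Pecam1 made up 96.4% ± 0.584 of the same sum in the joint steady-state node and 99.4% ± 0.0754 in the skin one. Esam, at 15.8% ± 4.37 in joint migrated and 16.9% ± 1.08 in skin migrated cells, was at most 1.26% in any nonmigrated or steady-state library.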
